A study of Mus musculus with 3 samples.

Results

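Small RNA sequencing of visceral fat from 3 C57BL/6J mice gave levels of microRNAs (miRNAs, short RNAs that guide repression of messenger RNAs), and those with a late registry number are described here. They were chosen by name alone: every row whose hairpin number was 3000 or higher, with miR-3107 left out. That rule took 301 of the 1251 mature miRNAs listed, under 237 hairpin names once the arm was dropped. All 3 mice belonged to 1 group, were 5 to 6 weeks old at the start, and ate for 11 weeks a high-fat diet to which EPA (eicosapentaenoic acid, a long-chain polyunsaturated fatty acid found in fish oil) had been added. Fat supplied 45% of the energy, protein 20% and carbohydrate 35%, the EPA content was given as 6.75%, and epididymal fat was taken after 4 h without food. There was no other diet group among the samples used here, so no value measures an effect of EPA. The titles number the samples 1, 3 and 9, and only the titles and a stated 3 samples per group point to separate animals, so the spread below may be partly technical.

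A miRNA gene is transcribed as a hairpin, which Drosha and Dicer cut to release a 5p and a 3p strand, and the strand loaded into Argonaute pairs with targets through its seed, bases 2 to 8. The registry numbers hairpins roughly in the order of submission, so high numbers mark entries that came late, mostly from deep sequencing. Well-studied, abundant and conserved miRNAs carry low numbers. Several late mouse entries overlap small nucleolar RNAs (snoRNAs, which guide chemical modification of other RNAs), repeats, or strands opposite to known miRNAs.

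Mature sequences were at hand, from RefSeq on GRCm38.p6, for 245 of the 301 late-numbered miRNAs, for 12 of the 20 that were detected in any mouse and for 6 of the 11 detected in all 3. The sequences of those 6, and of 3 others that the text returns to, are shown because they differ in base content, in overlap with other RNAs and in how often they recur. Capitals mark the seed.
miR-5126: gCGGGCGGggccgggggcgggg
miR-5130: cUGGAGCGcgcgggcgaggcaggc
miR-3473b: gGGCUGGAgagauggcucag
miR-3473e: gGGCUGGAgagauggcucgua
miR-3068-3p: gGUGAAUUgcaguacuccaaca
miR-3102-3p: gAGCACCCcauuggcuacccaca
miR-3470b: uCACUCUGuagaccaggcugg
miR-3074-5p: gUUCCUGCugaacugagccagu
miR-5129-3p: aAUGUGCCugugcaucucuucc
miR-5115, miR-5109, miR-5099, miR-5105, miR-5117-3p, miR-3096a-5p, miR-3096b-5p and miR-6243 had no mature entry there. For miR-5099 the 74-base hairpin was listed, on chromosome 12 from 36816205 to 36816278, plus strand, and is shown in lower case throughout as no mature position was given.
Mir5099 hairpin: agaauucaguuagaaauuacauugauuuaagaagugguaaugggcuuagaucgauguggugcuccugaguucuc

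Few of the late-numbered miRNAs were seen in this fat. A miRNA was counted as detected in a mouse when its deposited value exceeded the floor of the scale, a log2 value of 3.32, which is 10 on the linear scale. Of the 301, 11 were detected in all 3 mice (3.65%), 1 in 2 mice, 8 in 1 mouse, and 281 (the rest) in none. Over all 1251 miRNAs listed, 22.9% were detected in all 3 mice and 29.0% in at least 1, against 6.64% of the late-numbered ones in at least 1. Among the 948 miRNAs with numbers below 3000, 274 (28.9%) were detected in all 3. The depth of each library is unknown, so a value at the floor says only that the miRNA was below detection. The counts depend on how far above the floor a value must lie: at 5 times the floor on the linear scale 3 late-numbered miRNAs passed in all mice, and at 10 times the floor 2 did.

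Detection did not fall in an even way with the number. It was 168 of 366 in all mice (45.9%) for numbers 1 to 299, 91 of 458 (19.9%) for 300 to 999 and 15 of 124 (12.1%) for 1000 to 2999. Within the late numbers it was 4 of 140 (2.86%) for 3000 to 3999, 7 of 59 (11.9%) for 5000 to 5999 and 0 of 102 for 6000 to 6999, and no row carried a number from 4000 to 4999. The 5000s thus held 7 of the 11 miRNAs detected in all mice, at a share close to that of numbers 1000 to 2999, with no test made. In the 6000s, miR-6243 was the only miRNA above the floor in any mouse. On either side of the limit, the nearest detected miRNAs were miR-1983 and miR-2137 below it, at means of 5.48 and 8.72 log2 units, and miR-3057-5p and miR-3061-3p above it, at 3.72 and 3.74.

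**Figure D1:**
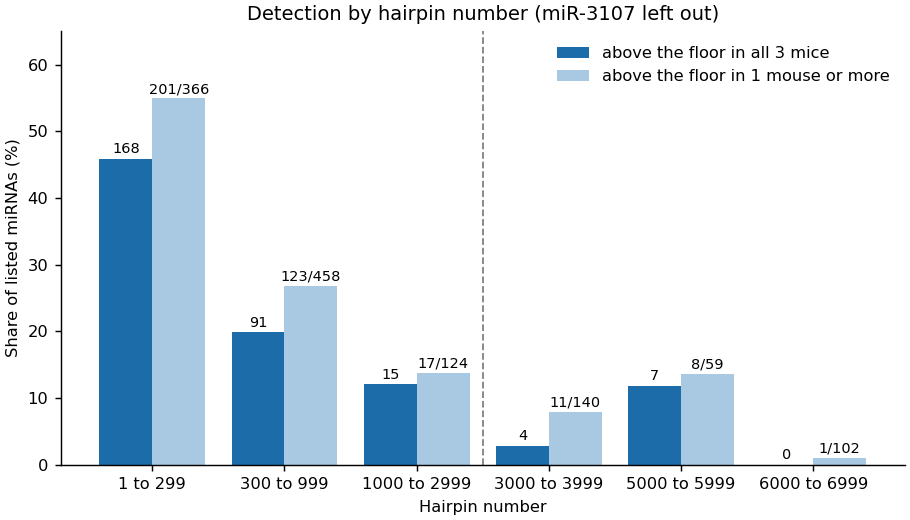
Bars give the percentage of listed miRNAs above the floor, by range of hairpin number (x axis), in all 3 mice (dark, count on top) and in 1 mouse or more (light, count of listed on top). The dashed line is the limit of 3000; the 5000s stand at 11.9% in all mice, between the 3000s at 2.86% and the 6000s at 0.

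The late-numbered miRNAs held little of the measured pool. Their summed normalized count above the floor was 808 in mouse 1, 999.8 in mouse 3 and 709 in mouse 9, or 0.0336%, 0.0416% and 0.0295% of each mouse's total. The mean share was 0.0349% ± 0.00614 (SD, n = 3). It was 0.159% when the constant of 10 was left in the values, and 1.58% with the 2 rows of miR-3107, which the rule leaves out. miR-5115 alone made up 47.9%, 54.8% and 30.7% of the late-numbered sum in mice 1, 3 and 9, and with miR-5126 the pair made up 72.3%, 74.5% and 54.6%.

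The detected ones sat in the lower part of the range. The median of their mean log2 levels was 4.01 over the 20 detected in at least 1 mouse and 5.10 over the 11 detected in all 3. For miRNAs with numbers below 3000 the same medians were 7.17 (n = 341) and 8.15 (n = 274). Of those 341, 142 had a mean above 8, as did 1 of the 20 late-numbered miRNAs, miR-5115. By mean level, miR-5115 ranked 126 among all miRNAs, miR-5126 ranked 160, miR-5109 ranked 198, miR-5099 ranked 210, and every other late-numbered miRNA ranked 244 or lower.

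**Figure D2:**
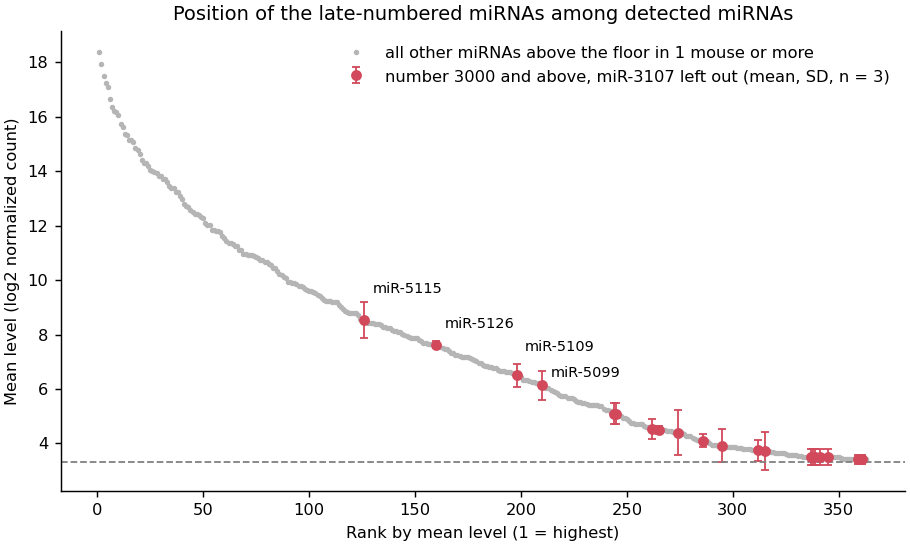
Mean level (y axis, log2 normalized count) of each miRNA above the floor in 1 mouse or more, against its rank (x axis). Large points are the 20 late-numbered miRNAs with their SD over 3 mice and small points all others; miR-5115 lies highest at 8.53, and most large points lie near the floor (dashed line).

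miR-5115 was the most abundant, at 8.63 log2 units in mouse 1, 9.12 in mouse 3 and 7.83 in mouse 9. Mouse 9 was the lowest of the 3 and its value lay 1.29 below that of mouse 3. The mean was 8.53 ± 0.65 (SD, n = 3), or 384 ± 165 normalized counts above the floor. No other miRNA in the table shared its value in any mouse.

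miR-5126 stood at 7.70 log2 units in mice 1 and 3 and at 7.49 in mouse 9. Its SD of 0.12 was the smallest of the 20 detected, and its mean was 7.63. Its sequence, shown above, is all G and C (100%), with G at 77.3% of positions. The RefSeq position is chromosome 1 from 84695890 to 84695911, plus strand, opposite to Dner, which encodes a Notch-related neuronal membrane protein. The sequence was found in 0 annotated transcripts of other classes and in 0 of 32851 promoters of 300 bases. The rest of the genome was not searched.

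miR-5109 and miR-5099 followed. miR-5109 had 6.12, 6.40 and 6.98 log2 units in mice 1, 3 and 9, with a mean of 6.50 ± 0.44 (SD, n = 3). miR-5099 had 6.12, 5.60 and 6.68, with a mean of 6.13 ± 0.54. Mouse 9 was highest for both, where it was lowest for miR-5115 and miR-5126. The hairpin of miR-5099, shown above, is 37.8% G and C, in contrast to miR-5126.

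miR-3473b and miR-3473e held the same values, 4.85 in mouse 1, 5.53 in mouse 3 and 4.91 in mouse 9, with a mean of 5.10 ± 0.38 (SD, n = 3). They share their seed and their first 18 bases, gggcuggagagauggcuc, and differ in the bases that follow. No other row had these values in all 3 mice. Whether the pair shared reads was not tested. In single mice each had further ties, with 2 other rows at its value in mouse 1, 4 in mouse 3 and 6 in mouse 9, its partner included. The 18 shared bases occurred, on the sense strand, in transcripts of 400 long RNA genes (0.812% of 49281, all other annotated classes apart from miRNA and small RNA genes) and, on either strand, in 38 promoters (0.116% of all). The whole miR-3473b sequence occurred in 342 of those genes and that of miR-3473e in 0. The RefSeq positions are chromosome 10 from 41670774 to 41670793, plus strand, opposite to Ccdc162, and chromosome 5 from 31667296 to 31667316, minus strand, in an intron of the ribokinase gene Rbks.

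miR-3068-3p had 4.13, 4.87 and 4.61 log2 units in mice 1, 3 and 9, with a mean of 4.54 ± 0.38 (SD, n = 3). It lies on chromosome 12 from 87437685 to 87437706, minus strand, in an exon of the long non-coding RNA gene Gm29362. The position is also inside the gene Alkbh1, which encodes a nucleic acid demethylase, but within none of its annotated exons. GENCODE M21 lists Mir3068 there both as a miRNA gene (87437679 to 87437757) and as a snoRNA gene (87437682 to 87437817). miR-5117-3p, at 4.31, 3.83 and 4.19 with a mean of 4.11 ± 0.25, belongs to a hairpin that the annotation lists only as a snoRNA gene, Mir5117, on chromosome 1 from 161037356 to 161037439, plus strand. Its 3 values were shared by 1 other row, miR-25-5p. Both snoRNA-annotated miRNAs were low but above the floor in each mouse.

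miR-5105 was steady, at 4.57, 4.34 and 4.61 log2 units in mice 1, 3 and 9 (mean 4.51, SD 0.15). miR-3102-3p was the least steady of all 20, at 5.24 in mouse 1, 4.34 in mouse 3 and 3.62 in mouse 9, with a mean of 4.40 ± 0.81 (SD, n = 3). It lies on chromosome 7 from 100882307 to 100882329, minus strand, within Arhgef17, in an exon of a retained-intron transcript. miR-5130 had 3.74, 4.59 and 3.41, with a mean of 3.92 ± 0.61, and so stood clear of the floor mainly in mouse 3. Its sequence is 83.3% G and C and lies in an untranslated region of Kctd12, an auxiliary subunit gene of GABA-B receptors, on chromosome 14 from 102982608 to 102982631, minus strand. The same 3 values were held by miR-1199-5p.

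**Figure D3:**
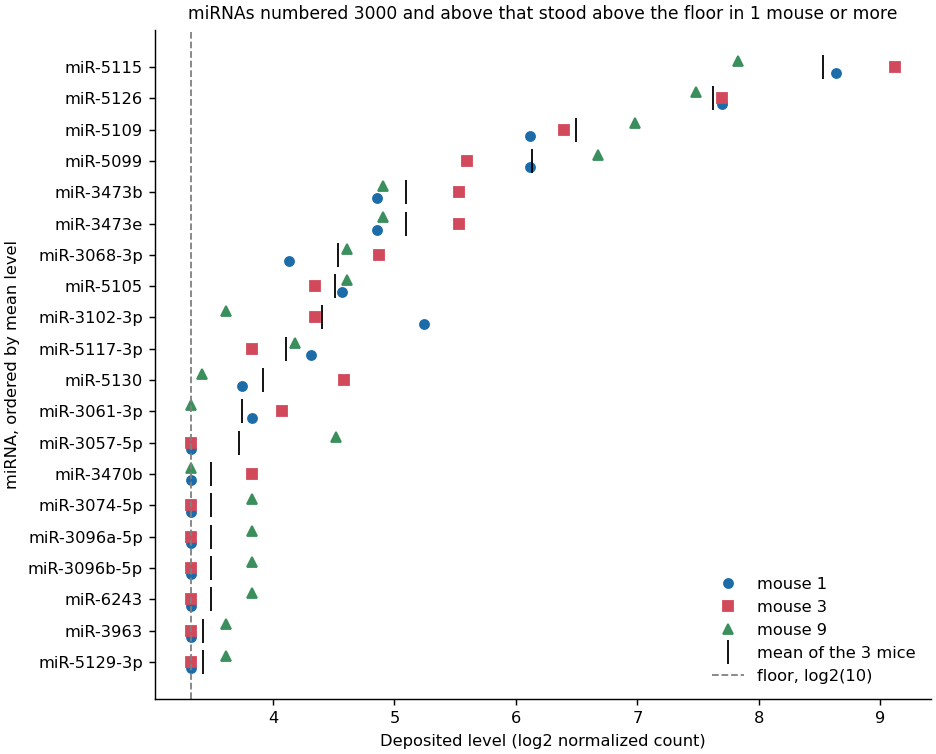
Deposited log2 level (x axis) of the 20 late-numbered miRNAs above the floor in 1 mouse or more (y axis, highest mean on top), with 1 symbol per mouse, a bar at the mean and the floor as a dashed line. The first 11 are above the floor in all mice, and among the last 9 most points of mice 1 and 3 lie on it.

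The order of the 11 was steadier in the upper part than in the lower. miR-5115 exceeded miR-5126 and miR-5126 exceeded miR-5109 in 3 of 3 mice, by means of 0.90 and 1.13 log2 units. miR-5109 exceeded miR-5099 in 2 mice and tied with it in mouse 1. miR-5099 exceeded the miR-3473 pair in 3 of 3 mice, though by only 0.07 in mouse 3, and that pair exceeded miR-3068-3p in 3 of 3. From miR-3068-3p down through miR-5105, miR-3102-3p, miR-5117-3p and miR-5130, no neighbouring pair kept its order in all mice, so neighbours there did not differ beyond their spread. Further apart, miR-5105 exceeded miR-5117-3p in 3 of 3 mice, by a mean of 0.40 log2 units, and miR-3068-3p exceeded miR-5130 in 3 of 3, by 0.62. In all, 4 of 10 neighbouring pairs and 43 of 55 pairs of any kind kept their order. No test of these differences was made.

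No mouse was high or low throughout. Among the 11, mice 1, 3 and 9 were lowest for 4, 3 and 4 of them. Between mice 1 and 3 no miRNA of the 11 differed by more than 1 log2 unit, between mice 1 and 9 only miR-3102-3p did, at 1.63, and between mice 3 and 9 miR-5115, miR-5130 and miR-5099 did, at 1.29, 1.17 and 1.08. The median SD was 0.38 log2 units for the 11 and 0.35 for the 146 lower-numbered miRNAs seen in all mice within the same range of levels. Within that range levels were not matched, with medians of 5.10 for the 11 and 6.31 for the 146. SDs above 0.5 were found for 4 of the 11 (36.4%) and for 52 of the 146 (35.6%). These shares were close, and no test of them was made.

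The other 9 detected miRNAs each stood at the floor in 1 or 2 mice. miR-3061-3p had 3.83 log2 units in mouse 1, 4.08 in mouse 3 and the floor of 3.32 in mouse 9. It lies in an untranslated region of Ppp2ca, the gene of the catalytic subunit of protein phosphatase 2A, on chromosome 11 from 52126804 to 52126825, plus strand. miR-3057-5p, in an exon of non-coding transcripts of Apba3 on chromosome 10 (81271610 to 81271633, plus strand), reached 4.52 in mouse 9 alone. miR-3470b reached 3.83 in mouse 3 alone. Its sequence recurs more than that of any other late-numbered miRNA with a sequence, in transcripts of 544 long RNA genes (1.10%).

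The remaining 6 were seen in mouse 9 alone, at 3.83 log2 units for miR-3074-5p, miR-3096a-5p, miR-3096b-5p and miR-6243 and at 3.62 for miR-3963 and miR-5129-3p. The first 4 were among 8 rows of the table with the same 3 values, and the last 2 among 12 such rows, as values this close to the floor take few distinct levels. Mouse 9 thus held 7 of the 8 late-numbered miRNAs seen in 1 mouse, and 21 of the 36 lower-numbered ones. It also had the lowest value above the floor, 0.661 normalized counts against 3.40 in mouse 1 and 2.67 in mouse 3, and the most miRNAs detected, 336 against 316 and 317. As values were nearly matched by rank across mice, a longer detected list and a lower minimum need not be separate traits. The part of either in these single-mouse detections was not tested. Without mouse 9, 13 late-numbered miRNAs in place of 20 were seen in at least 1 mouse, and 12 in place of 11 were seen in all.

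miR-3074-5p is a strand opposite to a well-known miRNA. Its exact reverse complement lies in both miR-24 hairpins, and its 2 positions, chromosome 13 from 63301249 to 63301270 and chromosome 8 from 84208873 to 84208894, minus strand, are opposite to Mir24-1 and Mir24-2. miR-24-3p, on the other strand, stood at 10.87, 10.70 and 10.99 log2 units in mice 1, 3 and 9, where miR-3074-5p was at the floor in 2 mice and at 3.83 in mouse 9. miR-3096a-5p and miR-3096b-5p were equal in value, and the annotation lists neither hairpin under its own name. Its entry under their shared number, Mir3096, is a snoRNA gene on chromosome 5 from 23710991 to 23711061, minus strand. Whether either hairpin lies there was not checked. miR-3963 lies between genes on chromosome 3 (151023839 to 151023857), and miR-5129-3p in an intron of Zeb2, the gene of a transcriptional repressor, on chromosome 2 (45023110 to 45023131), both on the minus strand.

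Few late-numbered miRNAs, detected or not, had the seed of a lower-numbered miRNA. Of the 12 detected with a sequence, 1 (8.33%) shared its seed with a lower-numbered miRNA in the table: miR-5129-3p has the seed of miR-455-5p. miR-455-5p was itself at the floor in mice 1 and 9 and at 4.08 in mouse 3. Among the 233 with a sequence that stayed at the floor, 22 (9.44%) shared a seed with a lower-numbered miRNA. That share is close to that of the detected ones, with no test made. miR-3473b and miR-3473e were the only 2 of the 12 with a common seed.

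Composition and recurrence were compared over the miRNAs with a sequence. The median share of G and C was 55.8% for the 12 detected late-numbered miRNAs, 52.4% for the 233 at the floor and 47.8% for the 756 lower-numbered ones. At least 70% G and C was found in 2 of the 12, miR-5126 and miR-5130, in 15 of the 233 and in 24 of the 756. The first base, often U in miRNAs, was U in 2 of the 12 and G in 6 of the 12. It was U in 42.5% and G in 18.0% of those at the floor, and U in 41.4% and G in 6.40% of 297 detected lower-numbered miRNAs. These are descriptions of 12 sequences that include the related miR-3473b and miR-3473e, and no test was made. The 12, used for the matches below too, lack miR-5115, the most abundant, as well as miR-5109 and miR-5099. A sequence was at hand for 12 of the 20 detected but for 245 of the 301 listed, so the groups compared are unevenly covered.

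**Figure D4:**
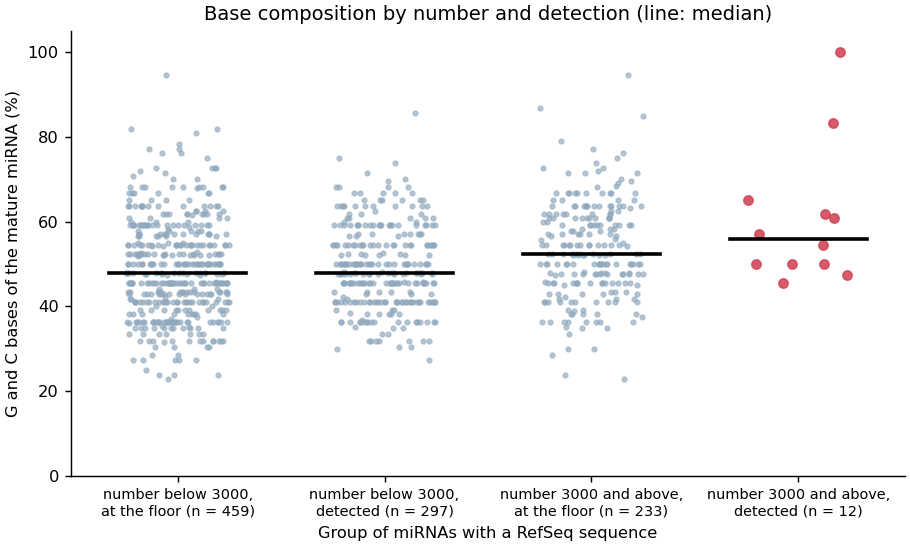
Share of G and C bases (y axis, %) of each mature miRNA with a RefSeq sequence, by hairpin number and detection in 1 mouse or more (x axis); lines are medians. Detected late-numbered miRNAs (large points) have a median of 55.8% and reach 100% with miR-5126.

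Exact matches to annotated transcripts of other classes were counted next, with no test. The sequence of a detected late-numbered miRNA lay in a long RNA transcript for 7 of 12 (58.3%), against 40 of the 233 at the floor (17.2%) and 82 of 297 detected lower-numbered miRNAs (27.6%). For miR-3057-5p, miR-3061-3p, miR-3068-3p, miR-3102-3p and miR-5130 the only matching gene was the 1 in whose exon the miRNA itself lies. Matches to many genes were found for miR-3473b (342) and miR-3470b (544). Matches at a miRNA's own position were not separated out in any of these shares. A match in a small RNA gene other than a miRNA gene was found for 3 of the 12. It was found for 6 of the 233 at the floor and 6 of the 297 detected lower-numbered miRNAs (2.02%). The 3 were miR-3470b, miR-3473b and miR-3068-3p, the last through the snoRNA entry Mir3068 at its own position. Overlap did not always come with detection: miR-5121, found in Snord33, both arms of miR-3069, found in Scarna13, and both arms of miR-3084, found in Snora19, stood at the floor in all mice. Recurrence in 10 or more long RNA genes was seen for 4 of 245 late-numbered miRNAs and for 0 of 756 lower-numbered ones. Of those 4, miR-3473b was detected in all mice, miR-3470b in 1, and miR-3473a (146 genes) and miR-3471 (34 genes) in none. The part of reads from such transcripts in these levels was not tested.

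Strand preference, a mark of hairpin processing, could be read for few hairpins. Of the 11 miRNAs detected in all mice, 8 carry no arm in their name, whereas 151 of the 301 listed do carry one. Both arms were listed under the same name for 64 late-numbered hairpins, 7 of them had an arm above the floor in any mouse, and 0 had both. Not among them were miR-3102 and miR-3074, whose strands are listed under differing names. Beside the detected miR-3102-3p and miR-3074-5p, the listed miR-3102-5p.2-5p and miR-3074-2-3p stood at the floor in all mice. None of the 7 reached a mean of 100 normalized counts above the floor, the level set for the arm test, so 0 were tested there. Without that filter, limma's moderated one-sample test with Benjamini-Hochberg adjustment over 202 hairpins called 2 of the 7, miR-3068 and miR-5117, both with the 3p arm higher. Over all 202, 38.6% were called with 3p higher and 39.1% with 5p higher.

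For miR-3068 the log2 ratio of 5p to 3p was -1.21 (SE 0.21, 3p higher in 3 of 3 mice, limma adjusted p = 0.00705), and for miR-5117 it was -0.78 (SE 0.17, 3 of 3 mice, limma adjusted p = 0.0153). Both had their 5p arm at the floor in every mouse, so these ratios could take only 1 sign and rest on the floor of the scale. The call for miR-5117 was lost without mouse 1 (adjusted p = 0.0750) and without mouse 9 (adjusted p = 0.0722). Of the others, miR-3061 had a ratio of -0.42 (adjusted p = 0.135) and miR-3057 of 0.40 (adjusted p = 0.307) by the same limma test.

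Marker miRNAs were set beside the tissue label, with no test. Adipocyte miRNAs were high, but so was the striated muscle miR-133a-3p in mice 3 and 9. The 4 adipocyte miRNAs checked stood between 13.81 and 17.10 log2 units on average, the hepatocyte miR-122-5p was at the floor in all mice, and 3 of 4 testis miRNAs were too, the exception being miR-34c-5p at a mean of 7.67. Every mouse had 3 of the 4 blood miRNAs checked, the 1 vessel miRNA and 2 of the 3 epithelial miRNAs at detectable levels. The exceptions were the blood miR-142-3p, at the floor in mouse 3, and the epithelial miR-141-3p, at the floor in mouse 9. Of the striated muscle miRNAs, miR-133a-3p stood at 11.94, 16.38 and 16.02 log2 units in mice 1, 3 and 9, miR-1a-3p at the floor, 5.53 and 3.44, and miR-206-3p above the floor in mouse 3 alone, at 3.83. The late-numbered miRNAs were measured in whole tissue, in which fewer cells of a type and less RNA per cell cannot be told apart.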

How the data were processed

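Libraries followed Illumina's small RNA protocol, per the labels' protocols. Per the series' design text, the authors ran the Gunaratne next-generation pipeline, mapped some 13.8 M reads a sample to mm10, scaled counts by total usable reads and added 40. Not given in the sources used here were the aligner and the miRNA annotation. The deposited values are log2 values whose floor is 10 when made linear; since 260 of them fall between 10 and 40, 10 was subtracted for linear values. Sorted columns differ by at most 0.34 log2 units at any rank, so differences between mice are nearly differences of rank. Depth per sample and counting errors are therefore unknown.

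Named were all miRNAs of the group above the floor in at least 1 mouse. The group, lists and tests were chosen with earlier results of these data known. Others, such as miR-5121 and miR-24-3p, were named after their values were seen. Levels are mean and SD over 3 mice. Mature names were matched to RefSeq sequences (GRCm38.p6) for 1001 of 1251 rows, and exact matches were sought in GENCODE M21 transcripts on the sense strand and in RefSeq promoters on both strands. Identical values are equal within 1e-06. Arm ratios were tested with limma 3.58.1 in R 4.3.3 (two-sided, Benjamini-Hochberg, threshold 0.05), a script tested on simulated data. Python 3.11.15 and pandas 2.3.3 were used. Alternatives covered the detection level, the number limit, the constant, filters, the variance prior, scaling and leaving out each mouse.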

Additional observations from a re-analysis of the deposited data

How the results depend on the processing

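The count of late-numbered miRNAs detected in all mice (11) was 3 at 5 times the floor, 2 at 10 times the floor and 7 with a number limit of 5000; leaving out 1 mouse gave 11 to 12. The count detected in at least 1 mouse (20) was 4 at both higher levels and 9 with a limit of 5000, and leaving out 1 mouse gave 13 to 20, the lowest without mouse 9. The summed share (0.0349%) was 0.159% with the constant left in, 0.0252% with a constant of 40 and 1.58% with miR-3107 kept. The median level of those detected (4.01) was 5.10 over those seen in all mice. It ranged from 3.99 to 4.79 with 1 mouse left out, over those still detected. The median SD (0.33) was kept over the same 20 miRNAs and ranged from 0.188 to 0.356, the lowest without mouse 9. There, those seen in mouse 9 alone stand at the floor in both remaining mice, which lowers that median. The count of hairpins past the arm test (0, as none was eligible) was 2 without the filter on level. The levels of the 20 detected miRNAs moved by less than their SD under median-ratio scaling, an alternative chosen after seeing the data. Its shifts were 0.029, -0.063 and 0.057 log2 units in mice 1, 3 and 9. Being small and of mixed sign, they could hardly move a mean, so this outcome says little of stability. With 3 mice, leaving out 1 cannot move a mean by as much as its SD, so that outcome says nothing of stability. No paired analysis was possible because there was 1 group. Values near the floor are few and tied, and limit what can be said of the 9 miRNAs at the floor in 1 or 2 mice.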
